A study of Arabidopsis thaliana with 11 samples.

Results

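The genes described here are 39 Arabidopsis thaliana genes of the cell cycle and of DNA replication, out of 28523 genes with a line in the deposited count tables. They were taken by gene identifier from a list made by function, with no measured value in its rule. Earlier results of these data were known when the list was chosen. By role, the list holds 6 genes of the MCM helicase, 8 of origin licensing and firing, 6 of the replication fork and of nucleotide supply, 10 cyclins, 5 cyclin-dependent kinases (CDKs), and 4 genes of the E2F and RBR1 switch.

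Before a cell copies its DNA, the origin recognition complex (ORC), CDC6 and CDT1 load the MCM helicase onto origins. CDC45 helps to activate the helicase, polymerases then copy the strands on the sliding clamp PCNA, and ribonucleotide reductase makes the deoxynucleotides they use. Entry into this phase is controlled by D-type cyclins with CDKA;1, which phosphorylate the retinoblastoma-related protein RBR1 and so release E2F transcription factors that act on replication genes. B-type cyclins and B-type CDKs act around mitosis. In the seed, the endosperm first multiplies nuclei without dividing the cytoplasm and then forms cell walls and slows its divisions, while the embryo goes on to grow.

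RNA was measured by sequencing in 11 libraries from seeds of crosses between the ecotypes Columbia (Col) and Landsberg (Ler), collected 7 to 9 days after pollination and dissected by hand under a microscope. Single-nucleotide differences between the ecotypes assigned each read to the maternal or the paternal allele, which served the study's question of genomic imprinting in endosperm. Wild-type embryo had 3 libraries, of which replicates 1 and 2 came from Col mothers and Ler fathers and replicate 3 from the opposite cross. Endosperm with a dme (DEMETER, a DNA glycosylase that removes DNA methylation) mutant mother, endosperm with a fie (FERTILIZATION-INDEPENDENT ENDOSPERM, a Polycomb protein) mutant mother and endosperm with a met1 (the DNA methyltransferase MET1, which maintains methylation) mutant father had 1 library each. The dme-2 mother was in Columbia-gl and was crossed with a wild-type Ler father, the fie-1 mother was Ler with a wild-type Columbia-0 father, and the met1-6 father, Columbia-gl by its protocol and Columbia-0 by its sample label, was crossed with a wild-type Ler mother. Wild-type endosperm had 2 libraries named full endosperm, replicate 1 from a Col mother and replicate 2 from a Ler mother, and 3 named pure endosperm, replicates 1 and 2 from Col mothers and replicate 3 from a Ler mother. The labels do not say how full and pure preparations differ. The titles of embryo replicate 1 and pure endosperm replicate 1 carry the letters LCM, usually laser capture microdissection, although their protocol is that of the other libraries. The dme and fie mothers were heterozygous and the met1 father homozygous, and the labels do not say that seeds inheriting the mutant allele were selected.

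Reads assigned to an allele numbered between 358142 (pure endosperm replicate 1) and 4828301 (full endosperm replicate 2) per library. Levels are given below in CPM, the read count of a gene scaled to a common library size after TMM normalisation, and a level of 0 CPM means no read of that gene. Libraries of 1 group differed far beyond sampling noise, with a chi-square per degree of freedom of 16.4 to 74.1 over 7 pairs. Of the genes mutated in the crosses, DME had 49.1 CPM with a dme mother, 39.3 CPM with a fie mother and 82.4 CPM with a met1 father, against 205, 144 and 210.3 CPM in pure endosperm. FIE had no read in any library and MET1 at most 12. DME was low in all 3 mutant libraries, so these read numbers check none of the mutant labels. The defining endosperm gene EPR1 took 113373 and 195637 CPM in pure endosperm replicates 2 and 3 and 9807 CPM in replicate 1, and 3.11, 1181 and 8327 CPM in the 3 embryo libraries. Reads of EPR1 in embryo replicates 2 and 3, and the low level in pure endosperm replicate 1, set these libraries apart from the others of their group.

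Of the 39 genes, 24 had enough reads for the test of total expression. Another 6 had 5 to 16 reads in all libraries together and were not tested, namely ORC1B, CYCA2;3, CYCB1;1, CYCB2;4, CYCD3;3 and CDKB1;1. The other 9 had no allele-assigned read: MCM4, ORC2, ORC3, ORC6, POLD1, CYCB1;2, CDKB2;1, E2FB and E2FC. The tables hold only reads that cover a difference between Col and Ler, so a gene without a read is not thereby shown to be silent. Over all 28523 genes, 12595 were tested, 5319 fell under the filter and 10609 had no read. In bulk tissue, fewer cells with a transcript and less of it per cell cannot be told apart.

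A sequence feature that the choice of genes did not use was present in some of their promoters. E2F factors bind an 8-letter site, and 4 spellings of it were searched on both strands, TTTCCCGC, TTTGGCGC, TTTCGCGC and TTTGCCGC, in the 250 bases before each RefSeq gene start (TAIR10.1, a build that the deposited files do not name). A match was present in 11 of the 39 promoters (28.2%), against 387 of 27443 promoters of protein-coding genes (1.41%). Matches were found in 5 of 6 MCM promoters, 3 of 8 origin licensing promoters, 1 of 6 promoters of fork and nucleotide genes, 1 of 10 cyclin promoters, 0 of 5 CDK promoters and 1 of 4 E2F and RBR1 promoters. The MCM7 promoter held none of the 4 spellings. The promoters of 4 MCM genes, of the origin recognition subunit gene ORC1A and of ICU2, the catalytic subunit of DNA polymerase alpha, are printed because they show how close to the gene start the match lies. They run 5′ to 3′ on the strand of the gene, end at the last base before the gene start and overlap no other gene, and capitals mark the match.
MCM2: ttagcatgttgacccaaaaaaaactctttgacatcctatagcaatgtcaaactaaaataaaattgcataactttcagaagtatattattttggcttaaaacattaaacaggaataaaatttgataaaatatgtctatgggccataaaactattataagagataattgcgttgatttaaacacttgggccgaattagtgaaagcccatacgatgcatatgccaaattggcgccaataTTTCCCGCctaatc
MCM3: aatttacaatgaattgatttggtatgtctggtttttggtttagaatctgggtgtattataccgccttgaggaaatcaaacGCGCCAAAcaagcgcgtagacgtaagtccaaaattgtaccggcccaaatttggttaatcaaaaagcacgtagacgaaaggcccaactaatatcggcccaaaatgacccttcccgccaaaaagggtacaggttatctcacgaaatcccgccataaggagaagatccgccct
MCM5: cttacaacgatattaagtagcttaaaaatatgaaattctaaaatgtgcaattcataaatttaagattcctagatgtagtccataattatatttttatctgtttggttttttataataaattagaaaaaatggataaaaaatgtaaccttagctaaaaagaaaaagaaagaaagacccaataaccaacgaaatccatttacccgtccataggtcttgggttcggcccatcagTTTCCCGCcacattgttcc
MCM6: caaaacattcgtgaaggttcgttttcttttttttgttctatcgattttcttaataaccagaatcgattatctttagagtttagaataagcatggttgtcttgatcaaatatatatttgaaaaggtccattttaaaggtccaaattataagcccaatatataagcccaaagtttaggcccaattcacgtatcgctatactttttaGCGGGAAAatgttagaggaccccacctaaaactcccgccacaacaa
ORC1A: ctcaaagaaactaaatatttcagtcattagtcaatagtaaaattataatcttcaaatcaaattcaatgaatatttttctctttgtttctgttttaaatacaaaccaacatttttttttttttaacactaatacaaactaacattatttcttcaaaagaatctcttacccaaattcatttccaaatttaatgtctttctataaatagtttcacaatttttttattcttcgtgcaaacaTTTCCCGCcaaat
ICU2: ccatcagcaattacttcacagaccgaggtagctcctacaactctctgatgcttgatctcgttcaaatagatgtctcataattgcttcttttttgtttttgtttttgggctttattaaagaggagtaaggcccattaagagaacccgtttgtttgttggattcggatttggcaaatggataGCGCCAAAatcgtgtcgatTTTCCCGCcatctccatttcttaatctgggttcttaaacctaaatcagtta
The window of MCM2 is chr1:16969964-16970213 on the plus strand, and its match begins 14 bases before the gene start. That of MCM3 is chr5:18773707-18773956 on the minus strand, with a match 170 bases before the start. The MCM5 window is chr2:3527501-3527750 on the minus strand and its match begins at 19 bases. The match of MCM6, chr5:18010668-18010917 on the minus strand, begins at 46 bases. ORC1A, chr4:8421923-8422172 on the plus strand, has its match at 13 bases. ICU2, chr5:26776703-26776952 on the plus strand, has a pair of matches, at 70 and 51 bases. A match describes the letters of a window and is not evidence of binding.

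Taken as a sum over the 39 genes, expression was highest in embryo. The sum was 2326, 1517 and 1265 CPM in embryo replicates 1, 2 and 3. It was 633 CPM with a dme mother, 1044 CPM with a fie mother and 472 CPM with a met1 father, against 317 and 588 CPM in full endosperm and 990.3, 733 and 662 CPM in pure endosperm. Every embryo library lay above every endosperm library, and the fie library lay above the 5 wild-type endosperm libraries. Maternal reads include those of the seed coat, which has no paternal genome. Paternal reads alone, normalised among themselves, summed to 2184, 1471 and 1300.0 CPM in embryo, 1734.7 CPM with a dme mother, 1644 CPM with a fie mother and 608 CPM with a met1 father, against 355 and 804 CPM in full endosperm and 857, 690.3 and 654 CPM in pure endosperm. On paternal reads the dme and fie libraries lay within the range of the embryo libraries.

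**Figure D1:**
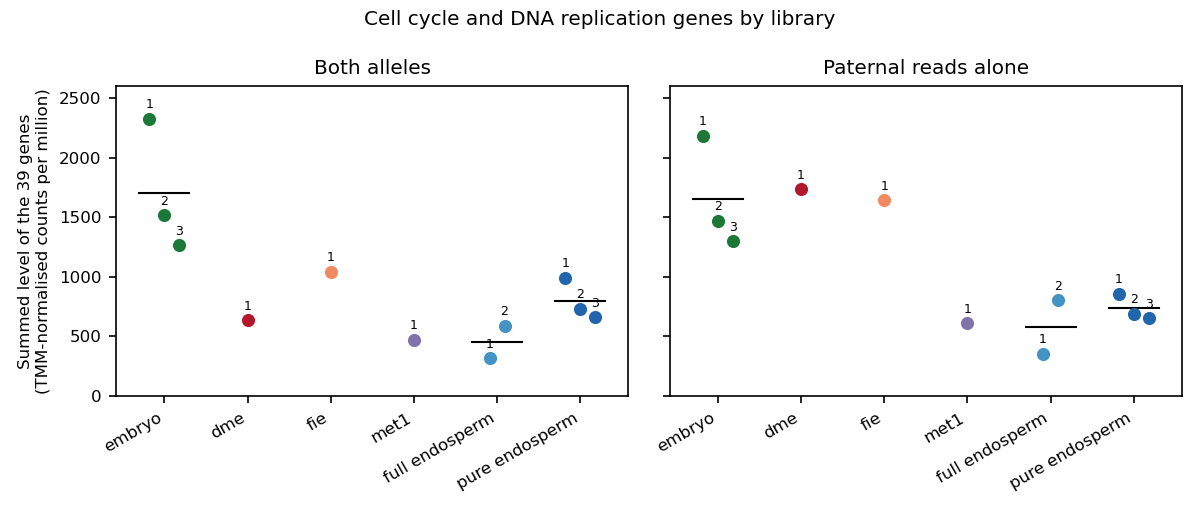
Summed level of the 39 genes in each library (TMM-normalised CPM, points numbered by replicate, horizontal lines at group means where a group has several libraries), from both alleles on the left and from paternal reads alone on the right. The dme library stands at 633 on the left and at 1734.7 on the right.

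The comparison of embryo with endosperm asks how expression of these genes differs between the tissues that fertilisation gives rise to. Embryos had more transcript of the sliding clamp, of both ribonucleotide reductase subunits, of the helicase subunit MCM7 and of a pair of D-type cyclins. With edgeR's quasi-likelihood test and Benjamini-Hochberg adjustment over all genes, 7 of the 24 genes were higher in embryo than in pure endosperm and none was lower. Over all 12595 genes tested, 23.5% were called in this comparison, 9.78% as higher and 13.7% as lower. The fold change was above 0 for 21 of the 24 genes, and its median was 0.95 on the log2 scale, against -0.05 over all genes. Against full endosperm, 12 of the 24 genes were higher and none was lower, where 29.6% of all genes were called, 11.6% as higher and 18% as lower. There the median of the 24 genes was 1.55 and that of all genes -0.22. Separate plants are not stated for the replicates, and the p-values then reflect the spread between libraries, which may be technical.

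Of the fork and nucleotide genes, 4 of 5 tested were higher against pure endosperm and 5 of 5 against full endosperm. RNR1 (AT2G21790), the large subunit of ribonucleotide reductase, had 730.1, 431 and 368 CPM in embryo, against 63.1 and 151 CPM in full endosperm and 219, 207 and 167 CPM in pure endosperm. Every embryo library was above every endosperm library. The log2 fold change of RNR1 was 1.31 ± 0.37 (SE) against pure endosperm (edgeR adjusted p = 0.0100) and 2.06 ± 0.46 against full endosperm (adjusted p = 0.00114). TSO2 (AT3G27060), a small subunit of the same enzyme, had 275, 100.4 and 58.7 CPM in embryo, against 11.5 and 46.8 CPM in full endosperm and 126, 33.6 and 33.1 CPM in pure endosperm. Pure endosperm replicate 1 lay above embryo replicates 2 and 3, so the groups overlapped. Its log2 fold change was 1.26 ± 0.43 against pure endosperm (edgeR adjusted p = 0.0378) and 1.58 ± 0.53 against full endosperm (adjusted p = 0.0297).

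PCNA1 (AT1G07370) encodes the sliding clamp. It had 98.5, 30.4 and 28.2 CPM in embryo, against 2.75 and 17.1 CPM in full endosperm and 16.3, 6.82 and 8.94 CPM in pure endosperm. The other clamp gene, PCNA2 (AT2G29570), had 204, 98.5 and 63.4 CPM in embryo, against 9.61 and 29.1 CPM in full endosperm and 55.9, 45.3 and 32.1 CPM in pure endosperm. For both genes embryo replicate 1 was the highest library and no endosperm library reached an embryo library. Against pure endosperm, edgeR gave a log2 fold change of 2.19 ± 0.50 for PCNA1 (adjusted p = 0.00209) and 1.32 ± 0.42 for PCNA2 (adjusted p = 0.0239). ICU2 (AT5G67100) had 13.5, 12.3 and 11.7 CPM in embryo, against 1.37 and 3.99 CPM in full endosperm and 4.66, 7.79 and 5.26 CPM in pure endosperm. The embryo libraries of ICU2 lay within a narrow range above all others, and the difference passed against full endosperm (log2 fold change 2.23 ± 0.68, edgeR adjusted p = 0.0140) but not against pure endosperm (1.01 ± 0.59, adjusted p = 0.230).

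Of the MCM genes, which encode the ring-shaped helicase, 1 of 5 tested was higher against pure endosperm and 2 of 5 against full endosperm. MCM7 (AT4G02060) had 308, 305 and 258 CPM in embryo, against 24.4 and 65.0 CPM in full endosperm and 130.5, 93.5 and 100.4 CPM in pure endosperm. The lowest embryo library was above the highest endosperm library, and edgeR gave log2 fold changes of 1.46 ± 0.36 against pure endosperm (adjusted p = 0.00394) and 2.71 ± 0.46 against full endosperm (adjusted p = 5.6e-05). MCM3 (AT5G46280) had 101.6, 53.8 and 41.1 CPM in embryo, against 7.14 and 13.3 CPM in full endosperm and 21.0, 35.1 and 32.1 CPM in pure endosperm. With the main settings MCM3 passed only against full endosperm, with a log2 fold change of 2.49 ± 0.52 (edgeR adjusted p = 0.000719). It stood at 0.99 ± 0.42 against pure endosperm (adjusted p = 0.0958). MCM2 (AT1G44900) had 55.0, 30.1 and 24.6 CPM in embryo, against 6.04 and 21.3 CPM in full endosperm and 41.9, 11.2 and 15.2 CPM in pure endosperm, and its groups overlapped through pure endosperm replicate 1. The log2 fold changes of MCM5 (AT2G07690) and MCM6 (AT5G44635) against pure endosperm were 0.52 ± 0.60 and 1.42 ± 0.62, and neither passed with the main settings. With library totals in place of TMM, MCM2 (1.41), MCM3 (1.49) and MCM6 (1.93) passed against pure endosperm. Without embryo replicate 3, MCM3 (1.37) and MCM6 (1.90) did.

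Of the origin licensing genes, 4 of 8 had enough reads to be tested. With the main settings edgeR called none against pure endosperm and 1 against full endosperm. Against pure endosperm 1 of the 4 had an unadjusted p under 0.05 and DESeq2 called none. ORC1A (AT4G14700) had 6.22, 7.91 and 7.04 CPM in embryo, against 1.65 and 1.11 CPM in full endosperm and 11.7, 1.95 and 3.15 CPM in pure endosperm. Embryo libraries were alike and above full endosperm (log2 fold change 2.14 ± 0.76, edgeR adjusted p = 0.0348), while pure endosperm replicate 1 exceeded all of them. CDC45 (AT3G25100) had 71.6, 55.4 and 89.2 CPM in embryo, against 26.9 and 38.2 CPM in full endosperm and 81.6, 47.2 and 48.9 CPM in pure endosperm. Its embryo and pure endosperm libraries overlapped, and with the main settings it passed neither test. CDC45 passed against full endosperm with library totals in place of TMM (1.27) and without both LCM-titled libraries (1.14). The same held without embryo replicate 1 (1.17) or pure endosperm replicate 1 (1.13). CDT1A (AT2G31270) had 17.6, 9.49 and 2.35 CPM in embryo, against 2.20 and 7.32 CPM in full endosperm and 0, 0.974 and 4.73 CPM in pure endosperm. Its log2 fold change of 2.03 ± 0.81 against pure endosperm did not pass with the main settings (edgeR adjusted p = 0.0769). It passed there with library totals (2.59), with a filter of 1 read (2.10) and on paternal reads alone (3.76). It also passed without embryo replicate 3 (3.35) or pure endosperm replicate 3 (3.39).

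D-type cyclins start the cycle. On reads of both alleles, both of those tested were higher in embryo than in either endosperm preparation. On paternal reads alone CYCD3;1 passed only against full endosperm and CYCD3;2 against neither preparation. CYCD3;1 (AT4G34160) had 21.8, 18.2 and 23.5 CPM in embryo, against 2.20 and 2.88 CPM in full endosperm and 0, 4.38 and 1.05 CPM in pure endosperm. The gap between the groups was wide, and its log2 fold changes of 3.16 ± 0.67 against pure endosperm (edgeR adjusted p = 0.000918) and 3.06 ± 0.69 against full endosperm (adjusted p = 0.00131) were the largest among the 24 genes in both comparisons. CYCD3;2 (AT5G67260) had 27.0, 27.7 and 23.5 CPM in embryo, against 4.12 and 8.65 CPM in full endosperm and 16.3, 10.2 and 5.26 CPM in pure endosperm. The embryo libraries were again above the rest, with log2 fold changes of 1.45 ± 0.51 against pure endosperm (edgeR adjusted p = 0.0369) and 1.88 ± 0.57 against full endosperm (adjusted p = 0.0137). CYCA3;1 (AT5G43080), an A-type cyclin, had 21.8, 10.7 and 5.87 CPM in embryo, against 0.824 and 3.33 CPM in full endosperm and 9.32, 6.82 and 3.68 CPM in pure endosperm. It passed against full endosperm alone (2.06 ± 0.76, edgeR adjusted p = 0.0414).

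The kinases and B-type cyclins had no call with the main settings. There none of the 3 CDKs tested passed in either comparison by edgeR, nor did any by DESeq2. Their log2 fold changes against pure endosperm were -0.91 ± 0.57 for CDKA;1 (AT3G48750), 0.18 ± 0.64 for CDKB1;2 (AT2G38620) and -0.16 ± 0.49 for CDKB2;2. None of these had an unadjusted p under 0.05 against pure endosperm, and 1, CDKB2;2, had one against full endosperm. Under several alternatives CDKB2;2 passed as higher in embryo than in full endosperm. Its log2 fold change was 1.43 with a filter of 1 read and 1.72 without both LCM-titled libraries. CDKB2;2 (AT1G20930) had 17.6, 23.7 and 30.5 CPM in embryo, against 4.94 and 11.98 CPM in full endosperm and 65.2, 19.97 and 15.8 CPM in pure endosperm, where replicate 1 was the highest of all. The B-type cyclin CYCB1;4 (AT2G26760) had 16.6, 12.3 and 7.04 CPM in embryo, against 3.02 and 3.55 CPM in full endosperm and 11.7, 7.79 and 7.89 CPM in pure endosperm, and did not pass. Against full endosperm it passed with library totals in place of TMM (1.83) and without the block for the cross set (1.86). Whether these genes differ in their response from the replication genes was not tested. E2FA (AT2G36010), an activating E2F factor, had 235, 237 and 184 CPM in embryo, against 93.9 and 101.6 CPM in full endosperm and 90.9, 146 and 143 CPM in pure endosperm. Embryo libraries lay above the wild-type endosperm libraries, yet E2FA passed only against full endosperm (1.24 ± 0.41, edgeR adjusted p = 0.0232).

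**Figure D2:**
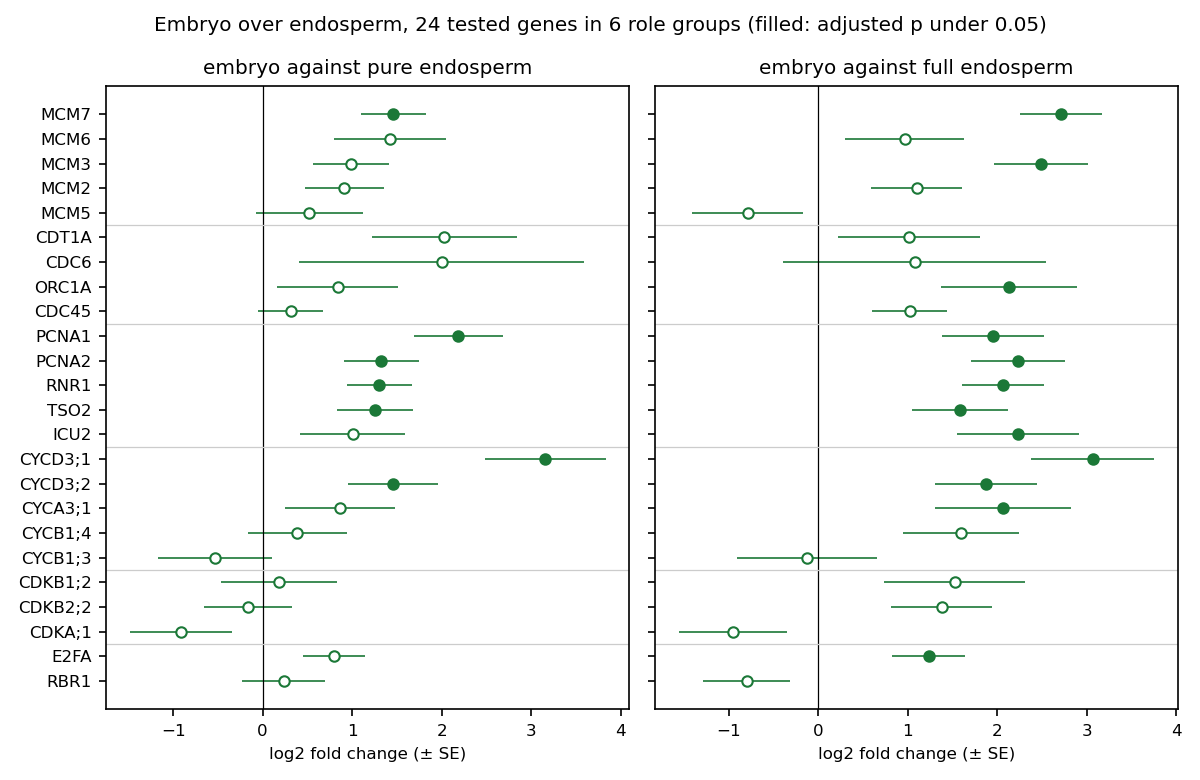
Log2 fold change of embryo over pure endosperm (left) and over full endosperm (right) for the 24 tested genes, ordered by role from MCM genes at the top to E2FA and RBR1 at the bottom, with bars of 1 SE. Filled points have an edgeR adjusted p under 0.05, and they number 7 on the left and 12 on the right.

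The count against pure endosperm depended on single libraries. With library totals in place of TMM, which moved the median log2 fold change of all genes to 0.41, it was 12. It fell to 1 gene, CYCD3;1, without embryo replicate 2, to 4 without pure endosperm replicate 3 and to 4 without both LCM-titled libraries. Of the 7 calls, CYCD3;1, MCM7 and PCNA1 were kept in 14 of 15 alternatives each, RNR1 in 11, PCNA2 in 9, and TSO2 and CYCD3;2 in 8. Against full endosperm it fell to 3 without full endosperm replicate 1 and to 5 without embryo replicate 2. Seed coat transcripts do not count on paternal reads alone. On these reads 6 genes were higher in embryo than in pure endosperm (10.1% of all genes called as higher). They included CDT1A and neither D-type cyclin. Against full endosperm 5 genes were higher (9.33%), and none was lower in either comparison. Markers of the maternal seed coat moved with the tissues, with 9 of 14 tested lower in embryo than in pure endosperm and 10 of 14 lower than in full endosperm. Their summed level was 124, 522 and 738 CPM in embryo, against 15269 and 9616 CPM in full endosperm and 541, 5213 and 3002 CPM in pure endosperm. Their part in these differences was measured only through the paternal reads.

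The mutant comparisons ask whether losing DME or FIE on the maternal side, or MET1 on the paternal side, changes these genes in endosperm. Few of them changed in total reads. The origin licensing genes CDT1A in the dme library and CDC6 and ORC1A in the fie library rose, as did PCNA1 in the dme library and E2FA in the fie library, and the mitotic cyclin CYCB1;4 fell in both. In the dme library 2 of the 24 genes were higher than in pure endosperm and 1 was lower, where 27% of all genes were called, 14.1% as higher and 12.9% as lower. In the fie library 3 were higher and 1 was lower, where 29.8% of all genes were called, 15.8% as higher and 14% as lower. In the met1 library edgeR called none, where 3.63% of all genes were called, 2.24% as higher and 1.39% as lower. In that comparison 4 of the 24 genes had an unadjusted p under 0.05, all lower, and DESeq2 called none. The median log2 fold change of the 24 genes was -0.03 in dme, 0.40 in fie and -0.81 in met1, and that of all genes was 0.15, 0.21 and -0.07. With library totals in place of TMM, the median of all genes moved to 0.94 in dme and 0.86 in fie, and the calls became 4 higher and 0 lower in dme and 5 higher and 0 lower in fie, without CYCB1;4. The counts also depended on single libraries, with 1 gene called in dme without pure endosperm replicate 2 and 2 in fie, CDC6 and E2FA. Without pure endosperm replicate 3 none of the 4 calls in fie passed, and CDT1A was called in their place. Without pure endosperm replicate 1, CDC45 was called as lower in met1. Each mutant is 1 library, whose spread was taken from the wild-type libraries, and the 3 comparisons share the pure endosperm libraries.

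CDT1A, which with CDC6 loads the helicase, had 15.9 CPM with a dme mother, 15.4 CPM with a fie mother and 3.25 CPM with a met1 father, against 0, 0.974 and 4.73 CPM in pure endosperm. The dme and fie libraries were far above pure endosperm, and above full endosperm with 2.20 and 7.32 CPM. Its log2 fold change was 3.29 ± 0.95 in dme (edgeR adjusted p = 0.0143) and 2.40 ± 0.92 in fie, where it did not pass (adjusted p = 0.0556). CDC6 (AT2G29680) had 2.07 CPM with a dme mother, 6.89 CPM with a fie mother and 0 CPM with a met1 father, against 0, 0.487 and 0 CPM in pure endosperm. The fie library held 30 reads of CDC6 and the 3 pure endosperm libraries together 1, a ratio of levels of 30.2 with a 95% counting interval of 5.02 to 1233 (edgeR adjusted p = 0.00657). ORC1A had 7.77 CPM with a dme mother, 20.4 CPM with a fie mother and 0 CPM with a met1 father, against 11.7, 1.95 and 3.15 CPM in pure endosperm. The fie library was the highest of all 11 and the met1 library had no read. ORC1A passed in fie (log2 fold change 2.63 ± 0.83, edgeR adjusted p = 0.0174) and not in dme (1.11 ± 0.86, adjusted p = 0.360).

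PCNA1 had 19.0 CPM with a dme mother, 23.2 CPM with a fie mother and 2.17 CPM with a met1 father, against 16.3, 6.82 and 8.94 CPM in pure endosperm. It passed in dme with a log2 fold change of 1.85 ± 0.67 (edgeR adjusted p = 0.0428), although pure endosperm replicate 1 came close to the dme level, and it did not pass in fie (1.20 ± 0.69, adjusted p = 0.195). The dme call of PCNA1 was kept in 6 of 15 alternatives and lost with DESeq2, without the block and without any of 6 single libraries, with a log2 fold change as low as 0.98. E2FA had 121 CPM with a dme mother, 423 CPM with a fie mother and 116 CPM with a met1 father, against 90.9, 146 and 143 CPM in pure endosperm. Only the fie library lay outside the range of the wild type, with a log2 fold change of 1.71 ± 0.49 (edgeR adjusted p = 0.00894). CYCB1;4 had 0.864 CPM with a dme mother, 0.919 CPM with a fie mother and 2.17 CPM with a met1 father, against 11.7, 7.79 and 7.89 CPM in pure endosperm. All 3 mutant libraries were below all 3 pure endosperm libraries. They were also below full endosperm, which itself had only 3.02 and 3.55 CPM. The log2 fold changes against pure endosperm were -3.17 ± 0.95 in dme (edgeR adjusted p = 0.0148), -2.93 ± 0.99 in fie (adjusted p = 0.0265) and -1.73 ± 1.18 in met1 (adjusted p = 0.490).

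Other genes, among them several that were higher in embryo, had no call in a mutant on reads of both alleles with the main settings. MCM7 had 71.9 CPM with a dme mother, 93.3 CPM with a fie mother and 70.5 CPM with a met1 father, against 130.5, 93.5 and 100.4 CPM in pure endosperm. RNR1 had 169 CPM with a dme mother, 123 CPM with a fie mother and 113 CPM with a met1 father, against 219, 207 and 167 CPM in pure endosperm. These libraries lay at the lower edge of the pure endosperm range or under it, and the log2 fold changes of MCM7 and RNR1 lay between -0.76 and 0.06. Full endosperm had 24.4 and 65.0 CPM of MCM7 and 63.1 and 151 CPM of RNR1, so the mutant libraries were not low against it. CYCD3;2 had 3.97 CPM with a dme mother, 5.28 CPM with a fie mother and 16.3 CPM with a met1 father, against 16.3, 10.2 and 5.26 CPM in pure endosperm. CDC45 had 45.6 CPM with a dme mother, 56.3 CPM with a fie mother and 15.2 CPM with a met1 father, against 81.6, 47.2 and 48.9 CPM in pure endosperm. The met1 library was the lowest for CDC45, with a log2 fold change of -2.00 ± 0.67 that did not pass (edgeR adjusted p = 0.0918). CDKB2;2 had 29.0 CPM with a dme mother, 57.2 CPM with a fie mother and 5.42 CPM with a met1 father, against 65.2, 19.97 and 15.8 CPM in pure endosperm. MCM2 had 26.4 CPM with a dme mother, 51.2 CPM with a fie mother and 8.67 CPM with a met1 father, against 41.9, 11.2 and 15.2 CPM in pure endosperm. For both genes the met1 library was below all 3 pure endosperm libraries and the fie library near or above their highest replicate. Full endosperm went lower than met1, to 4.94 CPM for CDKB2;2 and 6.04 CPM for MCM2.

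Paternal reads alone gave more calls in dme and fie. On these reads 7 of 23 genes tested were higher in the dme library than in pure endosperm and none was lower (14.4% of all genes called as higher), and 8 of 23 were higher in the fie library and none was lower (19.1% of all genes called as higher). PCNA1 had 46.6 paternal CPM with a dme mother, 53.4 with a fie mother and 4.05 with a met1 father, against 6.59, 4.24 and 4.21 in pure endosperm. These levels rest on 28 paternal reads in dme, 44 in fie and 1 in met1. The pure endosperm libraries together held 38 PCNA1 reads, 81.6% of them maternal. The dme and fie libraries stood far above pure endosperm, and so few reads do not order met1 against it. The 2 full endosperm libraries together held 87 PCNA1 reads, of which 49.4% were maternal. The log2 fold changes of paternal PCNA1 reads were 4.45 ± 0.87 in dme (edgeR adjusted p = 7.1e-06) and 3.22 ± 0.85 in fie (adjusted p = 0.000968). E2FA had 610.4 paternal CPM with a dme mother, 538 with a fie mother and 36.5 with a met1 father, against 132, 188 and 77.2 in pure endosperm. Paternal E2FA reads were above all wild-type libraries in dme and fie and below them in met1, with log2 fold changes of 1.93 ± 0.56 in dme (edgeR adjusted p = 0.00474) and 2.69 ± 0.58 in fie (adjusted p = 3.8e-05). The other genes called on paternal reads in both were MCM2, with 2.34 in dme and 2.15 in fie on the log2 scale, CDKB2;2, with 1.97 and 2.17, and ORC1A, with 2.85 and 2.75, besides CDT1A. CDT1A had 26 paternal reads with a dme mother and 15 with a fie mother, against 1 in pure endosperm, which is a ratio of levels of 67.9 (95% counting interval 11.2 to 2785) in dme and 28.6 (4.40 to 1204) in fie. RNR1 was called in dme alone (1.43 ± 0.57), MCM5 in fie alone (3.09 ± 1.16), and so was CDKB1;2 in fie (3.41, with the cross set in the model). CDKB1;2 had 33 paternal reads in fie, against 3 in pure endosperm. The read counts and ratios of CDT1A and CDKB1;2 pool pure endosperm of both cross directions. The fie father was Col, and CDKB1;2 had more Col than Ler reads in endosperm, so its counts mix both differences. CYCB1;4 was not called on paternal reads, where its log2 fold change in dme turned to 0.10. The met1 library gave no call on paternal reads (1.5% of all genes called as higher).

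Seed coat markers were higher in the mutant libraries than in pure endosperm, while embryo and endosperm markers went both ways in dme and fie. The 19 seed coat markers summed to 38232 CPM with a dme mother, 19739 CPM with a fie mother and 13727 CPM with a met1 father, against 541, 5213 and 3002 CPM in pure endosperm, and of the 14 tested 12 were higher in dme, 5 in fie and 5 in met1. In full endosperm the seed coat markers summed to 15269 and 9616 CPM, and the met1 library lay between these values. Paternal reads of these markers summed to 649 CPM in dme and 217 CPM in fie, against 79.1, 136 and 109.5 CPM in pure endosperm. The 20 embryo markers summed to 1211 paternal CPM in dme, 849.7 in fie and 684 in met1, against 119, 523 and 376 in pure endosperm. On reads of both alleles their sum was 447, 480 and 572 CPM in dme, fie and met1, against 191, 446 and 451 CPM in pure endosperm. Of 14 embryo markers tested on both alleles, 2 were higher and 3 lower in dme, and 1 was higher and 3 lower in fie. In met1 no embryo marker was called. Of 8 endosperm markers tested, 2 were higher and 3 lower in dme, 3 were higher and 3 lower in fie, and 1 was lower in met1. The endosperm genes of early stages AGL62, with 99.2 CPM in dme and 82.7 CPM in fie, and MINI3, with 46.6 and 27.1 CPM, had at most 0.526 CPM in any pure endosperm library. EPR1 had 365 CPM in dme and 63.6 CPM in fie, against 9807, 113373 and 195637 CPM in pure endosperm. Of the defining markers, TT2, TT12, MUM4 and AHA10 of the seed coat, CUC1, CUC3 and MP of the embryo and IKU2, MEA and PHE1 of the endosperm had no read in any library. The part of tissue makeup and of seed stage in the mutant differences was not tested.

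The 3 mutants were also compared with each other. Between the fie and the dme library no gene of the 24 was called by edgeR, 1 had an unadjusted p under 0.05, and 0.135% of all genes were called. Between the dme and the met1 library none was called either, with 6 at an unadjusted p under 0.05 and 6.52% of all genes called. DESeq2 was not run on these contrasts. Between the fie and the met1 library 5 genes were higher in fie and none was lower, where 15.2% of all genes were called, 6.63% as higher and 8.53% as lower. They were ORC1A, PCNA1, CDKB2;2, MCM2 and E2FA.

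A wider list of 73 other cell cycle genes, chosen by function, put these results beside their neighbours in the pathway, and 46 of them were tested. In embryo against pure endosperm, 7 were higher and 3 lower, beside 9.78% and 13.7% of all genes. Inhibitors of CDKs went both ways. KRP1 had 1 read in the embryo libraries together, against 62 in pure endosperm, a ratio of levels of 0.0163 (95% counting interval 0.000406 to 0.0941). SIM, which promotes endoreduplication, had 2 reads in embryo, against 120 in pure endosperm, a ratio of 0.0168 (0.00201 to 0.0621). KRP7 had 31 reads in embryo, against 1 in pure endosperm, a ratio of 31.3 (5.21 to 1275). Of the activators of the anaphase-promoting complex, CCS52B had 76.7, 98.5 and 126 CPM in embryo, against 37.3, 38.0 and 42.1 CPM in pure endosperm, and CCS52A1 had 11.4, 17.0 and 19.9 CPM in embryo, against 34.95, 38.97 and 33.1 CPM in pure endosperm. The groups did not overlap for either gene and the directions were opposite, with log2 fold changes of 1.35 ± 0.37 for CCS52B (edgeR adjusted p = 0.00806) and -1.15 ± 0.40 for CCS52A1 (adjusted p = 0.0379). The call of CCS52B was kept in 12 of 15 alternatives. That of CCS52A1 was kept in 3 of 15, and was lost with library totals, without the block and on paternal reads alone. DEL2, an atypical E2F-like factor, rose by 2.47 ± 0.74 on the log2 scale and the mitotic cyclin gene CYCA1;1 by 1.23 ± 0.39. Against full endosperm 11 of the 46 were higher and 5 lower, beside 11.6% and 18% of all genes, led by the DNA topoisomerase gene TOPII (2.51 ± 0.46), the kinase gene WEE1 (2.96 ± 0.56), CYCD1;1 (3.86 ± 0.77) and CCS52B (2.13 ± 0.43) as higher and by KRP1, KRP4 (-3.90 ± 0.74), SIM and CDKF;1 (-2.45 ± 0.65) as lower.

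In the mutants the wider list of 46 tested genes gave 6 higher and 8 lower genes in dme (14.1% and 12.9% over all genes), 8 higher and 8 lower in fie (15.8% and 14%), and 1 lower in met1 (1.39%). DEL2 had 61.5 CPM with a dme mother, 479 CPM with a fie mother and 0 CPM with a met1 father, against 9.32, 0.487 and 0.526 CPM in pure endosperm. CYCD4;1, a D-type cyclin, had 49.6 CPM with a dme mother, 43.6 CPM with a fie mother and 2.17 CPM with a met1 father, against 4.66, 1.46 and 1.58 CPM in pure endosperm. Both were far above pure endosperm in dme and fie alone. The log2 fold changes in dme and fie were 5.38 ± 0.82 and 8.54 ± 0.84 for DEL2 and 4.68 ± 0.76 and 4.51 ± 0.77 for CYCD4;1. FAS1, a chromatin assembly subunit, was higher in dme (2.23 ± 0.76) and in fie (2.96). CCS52A1 was higher in fie (2.14 ± 0.53) and in dme (1.40), where its call was kept in 8 of 15 alternatives. DEL1, another E2F-like factor, was higher in fie (3.57 ± 0.87). CYCA3;2 had 10 reads in the dme library, against 0 in pure endosperm, and was at least 2.52-fold higher when 3 reads are taken as the floor of the pure endosperm libraries together.

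Of 9 tested genes of mitosis and cytokinesis, 3 were lower in dme and 2 in fie, and 1 was higher in each, beside 12.9% of all genes lower in dme and 14% in fie. HIK, a kinesin of cytokinesis, had 13.0 CPM with a dme mother, 13.1 CPM with a fie mother and 58.5 CPM with a met1 father, against 305, 263 and 219 CPM in pure endosperm. PLE, a microtubule-binding protein of the cell plate, had 2.07 CPM with a dme mother, 0.459 CPM with a fie mother and 23.8 CPM with a met1 father, against 58.3, 28.3 and 31.5 CPM in pure endosperm. HIK fell by 4.33 and 4.22 on the log2 scale in dme and fie, PLE fell by 3.96 in dme, and in fie it had 2 reads, against 143 in pure endosperm. The mitotic cyclin gene CYCB2;3 was lower in dme (-2.41 ± 0.57), fie (-2.01 ± 0.56) and met1 (-2.97 ± 0.60), and TOPII in dme (-2.73 ± 0.64) and fie (-2.90 ± 0.67). DEL2, CYCD4;1, HIK and PLE kept their direction and their call in dme and in fie under each of the 15 alternatives computed.

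Parental share was measured as maternal over paternal reads, with the Col-against-Ler difference taken out by the reciprocal crosses. No gene of the list was called as imprinted by edgeR in any wild-type group. In embryo, tested against equal parental doses, 13 genes could be tested and 0.973% of all genes were called. In pure endosperm, tested against 2 maternal doses to 1 paternal, 15 could be tested and 4.97% of all genes were called, and in full endosperm 16 could be tested and 19.3% were called. None of these genes had an unadjusted p under 0.05, and DESeq2 called none. Their log2 deviations from the genome dose ran from -0.64 for CYCD3;2 to 1.12 for PCNA1 in pure endosperm. Between embryo and pure endosperm the deviation differed for 0 of 22 genes, with MCM7 alone at an unadjusted p under 0.05 and 0.846% of all genes called.

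The most read genes show how far the shares scattered. MCM7 reads were 53.9%, 44.4% and 59.5% maternal in embryo replicates 1, 2 and 3, and 73.0% and 62.8% in full endosperm and 51.8%, 58.9% and 63.9% in pure endosperm. RNR1 reads were 64.3%, 58.7% and 39.8% maternal in embryo, and 80.0% and 59.2% in full endosperm and 79.8%, 75.9% and 58.7% in pure endosperm. RNR1 was lower in the library from a Ler mother in each of the 3 groups. CDC45 reads were 81.2%, 72.9% and 39.5% maternal in embryo, and 88.8% and 50% in full endosperm and 91.4%, 87.6% and 33.3% in pure endosperm. CDC45 swung with the direction of the cross in every group. E2FA reads were 38.8%, 46.6% and 58.0% maternal in embryo, and 64.9% and 79.9% in full endosperm and 48.7%, 55.7% and 79.8% in pure endosperm, higher from Ler mothers.

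These swings are differences between the Col and Ler alleles, and their test was added after the counts had been seen. In endosperm, CDC45 had more Col than Ler reads by 1.76 on the log2 scale (edgeR adjusted p = 2.4e-10), MCM3 by 1.03, PCNA2 by 0.84, RNR1 by 0.67 and CDKB1;2 by 3.49. E2FA had more Ler reads (-0.72, edgeR adjusted p = 0.000331). That makes 6 of 23 genes, where 21.7% of all genes were called, 13.3% as higher from Col and 8.45% as higher from Ler. In embryo CDC45 (1.15) and RNR1 (0.64) were called of 13 genes, both as higher from Col, where 16.1% of all genes were called. A read is assigned by its fewer mismatches, so unequal numbers of usable positions or alignment to the reference can enter such a value, which was not tested.

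The mutants did not give a called shift of parental share among these genes. Of all reads, 88.9% were maternal with a dme mother, 77.3% with a fie mother and 73.6% with a met1 father, against 67.4%, 69.5% and 66.9% in pure endosperm. Of the reads of the 39 genes, 71.5% were maternal with a dme mother, 70.2% with a fie mother and 65.5% with a met1 father, against 69.4%, 67.6% and 63.0% in pure endosperm. The dme library was the highest in both, and stood closer to the wild type for these genes than for all reads. In dme none of 15 genes was called, where 46.4% of all genes were called, and the median log2 shift towards maternal reads was 0.46, against 1.69 over all genes. In fie none of 20 was called, where 16.7% of all genes were called, with medians of 0.29 and 0.93. In met1 none of 16 was called, where 2.77% of all genes were called, with a median of 0.64 on both sides. The number at an unadjusted p under 0.05 was 0 in dme, 1 in fie (CDC45, 1.49) and 3 in met1 (E2FA, RBR1 and CDC45), and DESeq2 called none. Measured against the median ratio of all genes in place of the genome dose, 4 genes were called in dme as less maternal, PCNA1 (-3.03), RNR1 (-1.33), E2FA (-2.17) and MCM7 (-1.39), with 14.1% of all genes called. In the wider list, KRP1, SIM, CCS52A1, CCS52A2, CCS52B and RFC1 were more maternal in dme than in pure endosperm and CDT1B less, and KRP1 was more maternal in fie. Measured against the median ratio, none of the more maternal calls passed, in dme or in fie. The log2 shift of CCS52A1 in dme became 0.27, that of CCS52B 0.46 and that of RFC1 0.31. Over all alternatives the lowest log2 shift of KRP1 was 5.91 in dme and 5.88 in fie, and that of SIM in dme was 4.25. SIM in dme and KRP1 in fie had 0 paternal reads, so their fitted shifts are no bound.

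**Figure D3:**
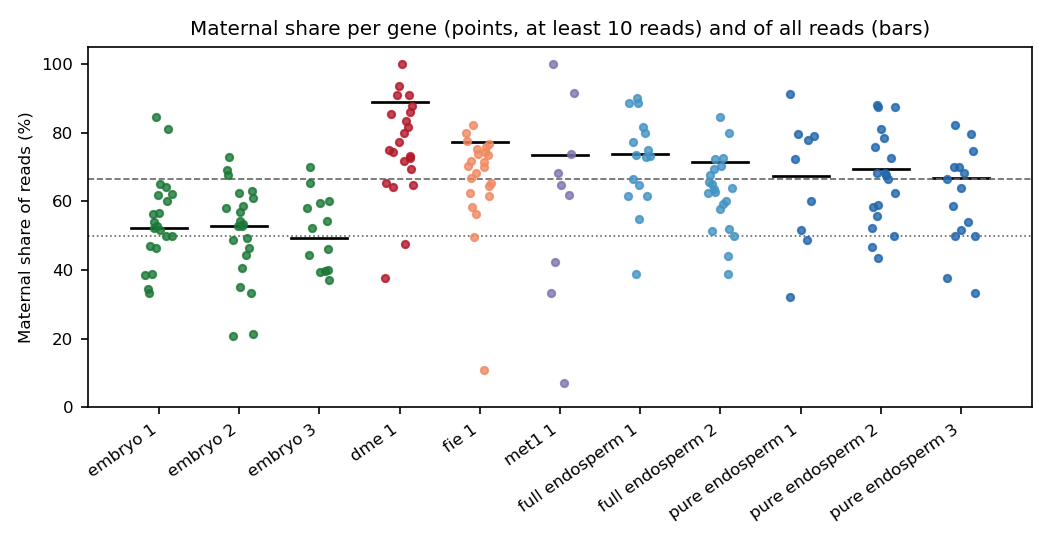
Maternal share of the reads of each gene with at least 10 reads in a library (points) and of all reads of that library (bars), for the 11 libraries, with the dashed and dotted lines at the shares expected from the genome doses of endosperm and embryo. In the dme library most points lie under the bar at 88.9%.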

How the data were processed

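The deposited tables hold read counts per gene and library: per the readme beside the files, the authors counted a read for an allele when it matched that ecotype's cDNA model better than the other's. Alignment used Bowtie, per the submitters' processing notes. Version, annotation release, strand handling and multiply matching reads are not described there, so near-identical genes may share reads. Groups came from the titles and replicates are numbered in accession order.

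Both allele counts were summed for total expression and split by parent for the parental share. All 11 libraries were fitted together in edgeR 4.0.16 (R 4.3.3; TMM, filterByExpr, robust quasi-likelihood), with the 6 groups and a block for the cross set (3 sets: the LCM-titled libraries, the remaining crosses with a Col mother, and those with a Ler mother), and p-values were Benjamini-Hochberg adjusted over all genes with a threshold of 0.05. The parental model had a term per library, Col-against-Ler terms per tissue and a parent term per group, and needed 10 reads in each cross direction. Its fits leave few residual degrees of freedom (3 in the model of total reads). Counting intervals are exact at 95% and cover counting error only, since no molecular identifiers are given. A share is printed where a gene had at least 10 reads.

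The 39 genes, the wider lists and the marker lists were chosen with earlier results of these data known. Values in every library are given for genes called in a comparison and for the most read gene of each role, and of the wider list up to 4 called genes with the smallest p per direction. Alternatives were DESeq2 1.42.0 (test and size factors), library totals, a filter of 1 read, no block, paternal reads alone, minima of 30 and 1 reads, the median ratio, each wild-type library left out, both LCM-titled libraries left out and, chosen after seeing the data, 10 reads per cross direction in each group. The fitting procedure was tested on simulated data. Promoters come from the RefSeq annotation of TAIR10.1.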

Additional observations from a re-analysis of the deposited data

Results flagged for a closer look

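The fie and met1 libraries differed from each other for 5 genes, by edgeR's contrast of the 2 mutant effects, which share the pure endosperm libraries. Log2 values are fie over met1. PCNA1 was higher by 3.39 (edgeR adjusted p = 0.0442), CDKB2;2 by 3.39 (adjusted p = 0.0215), MCM2 by 2.56 (adjusted p = 0.0363) and E2FA by 1.87 (adjusted p = 0.0332). ORC1A had 89 reads in the fie library, against 0 in the met1 library, and was at least 6.29-fold higher with a floor of 3 reads in the met1 library; its fitted log2 value of 8.70 (adjusted p = 0.0104) depends on the prior count and is no bound. The met1 library held 1057104 reads, against 3766443 in the fie library. Each side is 1 library, whose spread was taken from the wild-type libraries.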

How the results depend on the processing

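Over the 26 calls named in the comparisons of total expression, 299 recomputed values kept direction and call, 89 kept direction without passing, and 1 reversed: CYCB1;4 in dme, at 0.10 on paternal reads alone. Members called in embryo against pure endosperm numbered 7, but 12 with library totals alone, 4 without both LCM-titled libraries, and 1 to 9 leaving out 1 library each. Without the replicate block of cross sets, which the labels do not number as replicates, they numbered 3, and in dme 1. In embryo against full endosperm, 12 became 5 on paternal reads alone and 3 to 13 leaving out 1 library. In dme, 3 became 1 with DESeq2, 7 on paternal reads alone, and 1 to 4 leaving out 1 library. In fie, 4 became 1 with DESeq2, 8 on paternal reads alone, and 1 to 6 leaving out 1 library. In met1, 0 became 0 to 1 (CDC45). The parental share in dme gave 4 with the median ratio, and in fie 0 to 1 (CDC45) leaving out 1 library. Where a setting changed a count, the cause was not tested. The parental share of embryo could not be fitted without embryo replicate 3, since parent and ecotype then coincide. Depth limits genes under about 10 reads, and 15 of the 39 genes were not tested.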
